A study of Mus musculus with 19 samples.

Results

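High fat feeding was compared with normal feeding in the hearts of wild-type (WT) FVB/N mice, an inbred albino strain. All arrays labelled WT entered the comparison: 4 high fat hearts and 5 normal diet hearts, 9 of the 19 hearts measured in the series. The diets had lasted 16 weeks, with high fat food eaten freely, and hearts were collected at ZT 18, midway through the active phase. Neither the age of the animals nor the make-up of the diets is stated in the labels. The other 10 hearts came from CCM mice, transgenic FVB/N animals without a working circadian clock in their cardiomyocytes, 5 on each diet, and they entered the fit to share its estimate of the spread. Differences are high fat minus normal on the log2 scale, and a gene is said to have risen or fallen only where limma's adjusted p (Benjamini-Hochberg over all genes tested) was under 0.05.

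The heart draws most of its energy from long-chain fatty acids, which arrive as circulating free acids or are cut from lipoproteins by lipoprotein lipase. Inside the cardiomyocyte, fatty acids and their derivatives are ligands of PPAR alpha, a nuclear receptor that pairs with RXR and is known to switch on genes for fatty acid import, oxidation and storage. Among its best known targets in the heart is Pdk4, a kinase that shuts down the pyruvate dehydrogenase complex and so spares glucose.

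Across 14756 genes, 6 rose on the high fat diet (0.0407% of those tested) and 0 fell, by limma with Benjamini-Hochberg adjustment. Of the 6, 4 rose at least 2-fold, among them Pdk4 and Fbp2, which encodes the muscle form of the gluconeogenic enzyme fructose bisphosphatase. The long noncoding RNA 2210409D07Rik also rose, close to background. Smaller rises were found for Cidea, a lipid droplet protein, and Mgll, the lipase that cleaves monoacylglycerol into glycerol and a fatty acid. Of the 6, 4 were on the list of 24 measured PPAR alpha targets, Pdk4, Cidea and Mgll among them. Fitted to the WT arrays alone, the same test called 1 gene, and fitted to all arrays it called 2 when any of 4 single hearts was left out (high fat replicate 1, 2 or 3 or normal replicate 5). With cyclic loess in place of quantile normalization 7 genes were called, 6 higher and 1 lower.

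WT arrays detected 17378 to 18731 probes each, and their mean bead signal lay between 418.75 and 580.37 intensity units. Correlations of log2 signals were 0.978 to 0.994 within the WT groups and 0.982 to 0.995 between them, so that whole profiles of hearts on different diets were as alike as those of hearts on the same diet. Each array came from 1 animal, so that the p-values measure the spread between animals and arrays together. In whole hearts, fewer cells of a type and less RNA per cell cannot be told apart. All 8 cardiomyocyte markers, Myh6 and Tnnt2 among them, were detected, and their summed linear level was 268367 to 280213 in the normal diet hearts and 270541 to 286188 in the high fat hearts.

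The start-site regions of 4 genes are shown as examples: Pdk4 and Fbp2 rose, and Ucp3 and Plin2 are PPAR alpha targets whose windows hold the motif core. Each holds 250 bases before and 50 after the annotated start in RefSeq's GRCm38.p6 assembly, read 5′ to 3′ on the gene's strand, from chr6:5496229-5496528 (minus strand, Pdk4), chr13:62858351-62858650 (minus strand, Fbp2), chr7:100472741-100473040 (plus strand, Ucp3) and chr4:86670010-86670309 (minus strand, Plin2). Capitals mark the core hexamer of the PPAR binding motif, AGGTCA on the printed strand or TGACCT where it lies on the other.
Pdk4: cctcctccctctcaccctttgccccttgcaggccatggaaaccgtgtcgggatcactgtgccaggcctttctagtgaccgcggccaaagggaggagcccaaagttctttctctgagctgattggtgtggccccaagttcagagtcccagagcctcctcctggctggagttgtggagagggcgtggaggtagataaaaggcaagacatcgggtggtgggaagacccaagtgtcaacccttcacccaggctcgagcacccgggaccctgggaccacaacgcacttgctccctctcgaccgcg
Fbp2: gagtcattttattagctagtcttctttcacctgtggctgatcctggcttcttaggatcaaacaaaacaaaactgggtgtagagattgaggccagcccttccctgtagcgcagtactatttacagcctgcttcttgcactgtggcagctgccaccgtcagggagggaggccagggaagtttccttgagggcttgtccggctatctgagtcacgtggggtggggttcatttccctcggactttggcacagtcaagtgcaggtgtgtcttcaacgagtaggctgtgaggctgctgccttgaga
Ucp3: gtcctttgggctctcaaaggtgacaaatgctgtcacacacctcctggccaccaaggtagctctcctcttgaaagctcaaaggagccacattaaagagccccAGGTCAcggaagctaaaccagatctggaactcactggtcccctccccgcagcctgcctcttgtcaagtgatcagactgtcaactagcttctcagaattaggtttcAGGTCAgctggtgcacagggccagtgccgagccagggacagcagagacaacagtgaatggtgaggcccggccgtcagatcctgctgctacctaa
Plin2: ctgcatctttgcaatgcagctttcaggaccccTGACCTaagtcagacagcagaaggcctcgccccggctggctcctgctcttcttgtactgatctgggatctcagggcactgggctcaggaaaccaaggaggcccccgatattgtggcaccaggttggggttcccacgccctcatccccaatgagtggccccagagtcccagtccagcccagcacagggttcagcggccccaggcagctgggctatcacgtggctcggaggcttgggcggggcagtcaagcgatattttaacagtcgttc
Neither Pdk4 nor Fbp2 held the hexamer in this window, Ucp3 held it 2 times, 149 and 44 bases before its start, and Plin2 once on the opposite strand, 218 bases before its start. The direct repeat that PPAR and RXR bind together, AGGTCANAGGTCA, was searched on both strands and stood in 13 of 32851 mouse promoter windows of the same length (0.0396%). Its looser form AGGNCANAGGNCA, which takes in every match of the stricter one, stood in 125 (0.381%). Neither form was found in the 18 windows of the 17 measured PPAR alpha targets that the table covers. The single hexamer stood in 6 of those 18 windows (33.3%; Acadm, Acadvl, Cd36, Cpt1a, Plin2 and Ucp3), against 5340 of all 32851 (16.3%). Mgll, which rose, held no hexamer in either of its windows. Of the 6 genes that rose, 3 were looked at singly, Pdk4, Fbp2 and Mgll, while Cidea and 2210409D07Rik were not. These matches describe letters in a short window and say nothing about binding.

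Pdk4, the inhibitory kinase of pyruvate dehydrogenase, was among the brighter genes on the arrays. Its signal was 14.89, 14.60, 14.84 and 13.62 in high fat replicates 1 to 4 and 12.86, 12.36, 12.88, 12.58 and 12.33 in normal replicates 1 to 5, the order in which animals are listed throughout. High fat replicate 4 stood well under the other high fat hearts and still above every normal diet heart. The rise was 3.70-fold (1.89 ± 0.29 log2; limma, adjusted p = 0.0153, and 0.0532 with the WT arrays alone). A further, dim Pdk4 probe, detected on 3 of the 9 WT arrays, showed -0.13 ± 0.12. The call was lost without any of 4 WT hearts (high fat replicates 1, 2 and 3 and normal replicate 5), with adjusted p up to 0.126 without high fat replicate 3. No other member of the 12 measured pyruvate dehydrogenase genes changed, and the list's median was 0.05.

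Fbp2 read 11.67, 11.66, 11.84 and 12.09 in the high fat hearts and 10.25, 10.86, 10.96, 10.86 and 10.18 in the normal diet hearts. Normal replicates 1 and 5 were the lowest, and the groups did not overlap. The rise was 2.28-fold (1.19 ± 0.18 log2; limma, adjusted p = 0.0153, and 0.148 with the WT arrays alone). It was lost without any of 6 WT hearts (high fat replicates 1 to 4 and normal replicates 1 and 5), with adjusted p up to 0.104 without high fat replicate 3. Of 18 measured genes of glucose uptake and glycolysis none changed and none reached an unadjusted p under 0.05. Their median was -0.03, with the insulin-responsive glucose transporter Slc2a4 at -0.14 ± 0.17.

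The noncoding RNA 2210409D07Rik was dim. It read 6.53, 6.47, 6.95 and 6.23 in the high fat hearts and 5.0, 5.55, 5.58, 5.19 and 5.02 in the normal diet hearts, and was detected on 4 of 4 and 2 of 5 arrays. With 0 of 10 CCM arrays it was detected on 6 of 19 in all, so that it met the filter of 4 arrays through the high fat group, and it was not tested where 9 arrays or a detection p under 0.01 were asked. The groups did not overlap, and the difference was 1.28 ± 0.15 log2 (limma, adjusted p = 0.000576, and 0.0556 with the WT arrays alone). Near the background the size of the difference depended on the background correction: without it the rise was 0.62 log2 (adjusted p = 0.0114).

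Cidea, which sits on lipid droplets and promotes their growth, read 10.14, 10.45, 10.55 and 9.99 on high fat and 9.40, 9.65, 9.58, 9.73 and 9.40 on normal diet. The lowest high fat heart, replicate 4, lay above the highest normal diet heart, replicate 4. The rise was 1.66-fold (0.74 ± 0.13 log2; limma, adjusted p = 0.0477, and 0.309 with the WT arrays alone). Mgll read 12.53, 12.46, 12.68 and 12.59 on high fat and 12.12, 11.93, 12.09, 12.14 and 12.23 on normal diet. Here too no animals overlapped, although the rise was only 1.38-fold (0.46 ± 0.08 log2; limma, adjusted p = 0.0477, and 0.423 with the WT arrays alone). Both calls lay at the threshold: leaving out single animals of the series ended that of Cidea in 16 of 19 cases and that of Mgll in 18, with adjusted p up to 0.286 for each without high fat replicate 3.

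**Figure D1:**
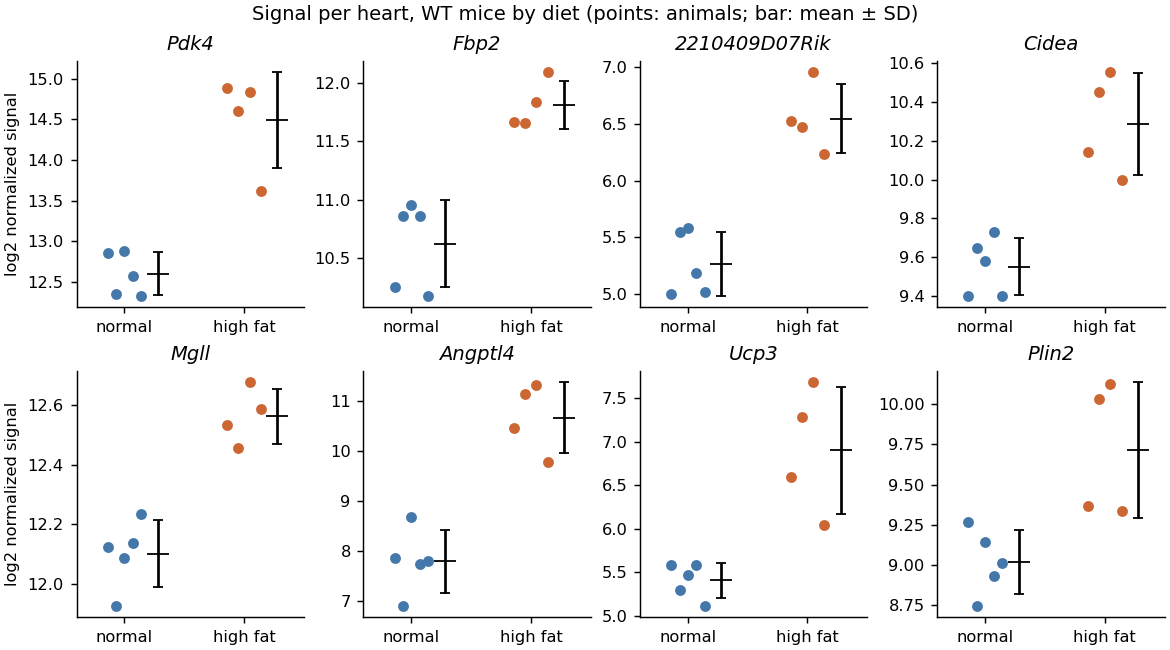
Normalized log2 signal of 8 genes in each WT heart (points; bars show mean ± SD, 5 normal diet and 4 high fat animals). No high fat animal reaches down to the normal diet animals in any panel; Angptl4, Ucp3 and Plin2 did not pass the adjusted threshold in the fit of all 19 arrays, and Angptl4 passed in 7 of 17 alternatives.

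**Figure D2:**
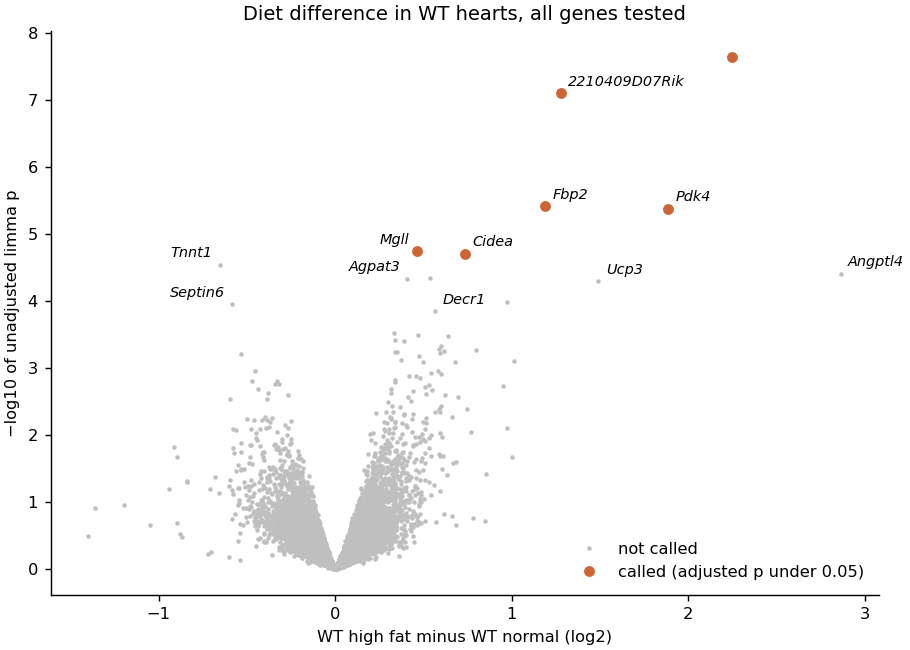
Each point is 1 of the 14756 genes; the horizontal axis is the log2 difference between WT high fat and WT normal hearts and the vertical axis is −log10 of limma's unadjusted p. The 6 genes that rose lie on the right, and no gene on the left passed.

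A further 5 genes lay between adjusted p of 0.05 and 0.1 by limma, 4 of them higher on high fat. Angptl4, a secreted inhibitor of lipoprotein lipase, had the largest mean difference of all genes tested. It read 10.45, 11.14, 11.31 and 9.77 on high fat and 7.86, 6.91, 8.69, 7.75 and 7.81 on normal diet, without overlap. The difference was 7.29-fold with a wide error (2.87 ± 0.53 log2; limma, adjusted p = 0.0676), and a further, dim probe showed 0.73 ± 0.26. It was called in 7 of 17 alternatives beside those that left out 1 animal, with animal number as a block (limma, adjusted p = 0.0229), without background correction (0.0392) and with the authors' normalized values (0.0391) among them. Ucp3, a mitochondrial carrier of muscle that is induced by fatty acids, read 6.59, 7.28, 7.68 and 6.04 on high fat and 5.58, 5.30, 5.47, 5.58 and 5.11 on normal diet. The groups did not overlap, but the spread of the high fat hearts was large (SD 0.73, against 0.20 on normal diet), and the difference was 1.49 ± 0.28 (limma, adjusted p = 0.0676), with 1.41 ± 0.37 for its other probe. Without background correction Ucp3 stood at 0.76.

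Agpat3, an acyltransferase of phosphatidic acid synthesis, read 10.70, 10.71, 10.63 and 10.66 on high fat and 10.33, 10.38, 10.22, 10.18 and 10.23 on normal diet (0.41 ± 0.08; limma, adjusted p = 0.0676). The groups were tight and separate. Vwa8, a mitochondrial protein with an ATPase domain, showed 0.54 ± 0.10 (limma, adjusted p = 0.0676). Its 4 other probes showed 0.16 to 0.61, the lowest value coming from the dimmest probe. Tnnt1, troponin T of slow skeletal muscle, came closest to a fall: it read 8.87, 8.87, 9.16 and 9.25 on high fat and 9.56, 9.42, 9.85, 9.95 and 9.69 on normal diet (-0.65 ± 0.12; limma, adjusted p = 0.0596). No high fat heart reached the normal diet hearts. It was called in 7 of 17 alternatives beside those that left out 1 animal, cyclic loess (-0.66; limma, adjusted p = 0.0426) and array weights (0.0189) among them. A constant shift per array left it far from the threshold (-0.56; adjusted p = 0.975).

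Other genes with small p on the lower side did not pass. Septin6, a septin of the cytoskeleton, read 6.83 to 7.23 on high fat and 7.56 to 7.72 on normal diet (-0.59 ± 0.12; limma, adjusted p = 0.124). Prps2, an enzyme of nucleotide precursor synthesis, stood at -0.53 ± 0.13 and Prokr1, a prokineticin receptor, at -0.47 ± 0.13, the latter detected on 1 of 4 high fat and 5 of 5 normal diet arrays. Wdcp (-0.33 ± 0.09) and Dusp19, a dual-specificity phosphatase (-0.32 ± 0.09), also separated the groups without overlap. Over all genes, 67 (0.454%) had every high fat heart below every normal diet heart and 123 (0.834%) had every high fat heart above.

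PPAR alpha targets had the highest median of the 32 gene lists. The lists were chosen with earlier results of these data known, so that this rank is no independent support. The list named 31 genes, of which Acot1, Cyp4a10, Cyp4a14, Slc25a20, Vnn1, Hadha and Creb3l3 had no probe that was tested. Of 24 measured members, 4 rose, 0 fell and 20 did not pass. At an unadjusted p under 0.05, 17 of the 24 were higher and 0 lower, where 1.99% of all genes tested were higher and 1.11% lower (3.1% in either direction). No overlap between the groups, with high fat above, was seen for 11 of the 24, and for 0.834% of all genes. The median difference of the list was 0.40, beside 0.01 for all genes. Of all 14756 genes 7628 had a positive sign, and of the list's members 22. The 2 others were Cpt1a, the liver-type carnitine palmitoyltransferase (-0.08 ± 0.17), and Lpl, lipoprotein lipase itself (-0.01 ± 0.06).

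The 13 targets that were higher only at an unadjusted p ranged from Angptl4 down to Cpt1b, the muscle carnitine palmitoyltransferase that admits fatty acids to the mitochondrion (0.19 ± 0.07). Plin2, a coat protein of lipid droplets, read 9.37, 10.03, 10.12 and 9.34 on high fat and 9.27, 8.75, 9.15, 8.93 and 9.01 on normal diet. High fat replicates 2 and 3 stood clear of the normal diet hearts and replicates 1 and 4 only just (0.69 ± 0.20; limma, adjusted p = 0.672). Acot2, a mitochondrial acyl-CoA thioesterase, read 7.54, 8.0, 8.42 and 7.33 on high fat and 6.84, 6.91, 7.39, 6.21 and 7.01 on normal diet, with replicate 4 inside the normal range (0.95 ± 0.26; limma, adjusted p = 0.585). Mlycd, which removes the oxidation inhibitor malonyl-CoA, was tight: 12.36 to 12.42 on high fat and 11.89 to 12.19 on normal diet (0.34 ± 0.09). Fgf21, a hormone that the liver releases in fasting, was near background, detected on 2 of 4 high fat and 0 of 5 normal diet arrays (0.66 ± 0.21). Its normal diet level lay below detection, so that its place among the 13 rests on signals that were not measured.

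The rest of these 13 were Ehhadh, an oxidation enzyme of the peroxisome (0.47 ± 0.12), Txnip, an inhibitor of thioredoxin and glucose uptake (0.47 ± 0.17), the peroxisomal thiolase Acaa1b (0.41 ± 0.12), the acyl-CoA dehydrogenases Acadm (0.36 ± 0.15) and Acadvl (0.21 ± 0.09), and the mitochondrial thiolase Acaa2 (0.20 ± 0.07). Members that did not reach an unadjusted p under 0.05 had wide errors or small differences. Cd36, the fatty acid translocase, read 8.60 to 9.90 on high fat and 8.40 to 9.64 on normal diet (0.39 ± 0.34), and the uncoupling protein Ucp2 showed 0.38 ± 0.23. The dehydrogenase Acadl (0.37 ± 0.31) overlapped as widely. Fabp3, the abundant fatty acid binding protein of heart, showed 0.10 ± 0.07.

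The high fat hearts differed among themselves in these genes. Of the 24 members, 12 were highest in high fat replicate 3 and 12 lowest in high fat replicate 4. The same counts were not made over all genes, and members that vary together are not separate observations. Replicate 4 was the lowest high fat heart for Pdk4, Angptl4, Ucp3, Cidea, Acot2, Plin2, Fgf21 and Txnip. It was the highest for Fbp2, which was not on the target list. Mean signal was 526 intensity units for replicate 3 and 556 for replicate 4, within the range of the other WT arrays. Probes detected were 17493 in replicate 3 and 17875 in replicate 4, against 18204 and 18203 in high fat replicates 1 and 2. The part of array quality in this spread was not tested.

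**Figure D3:**
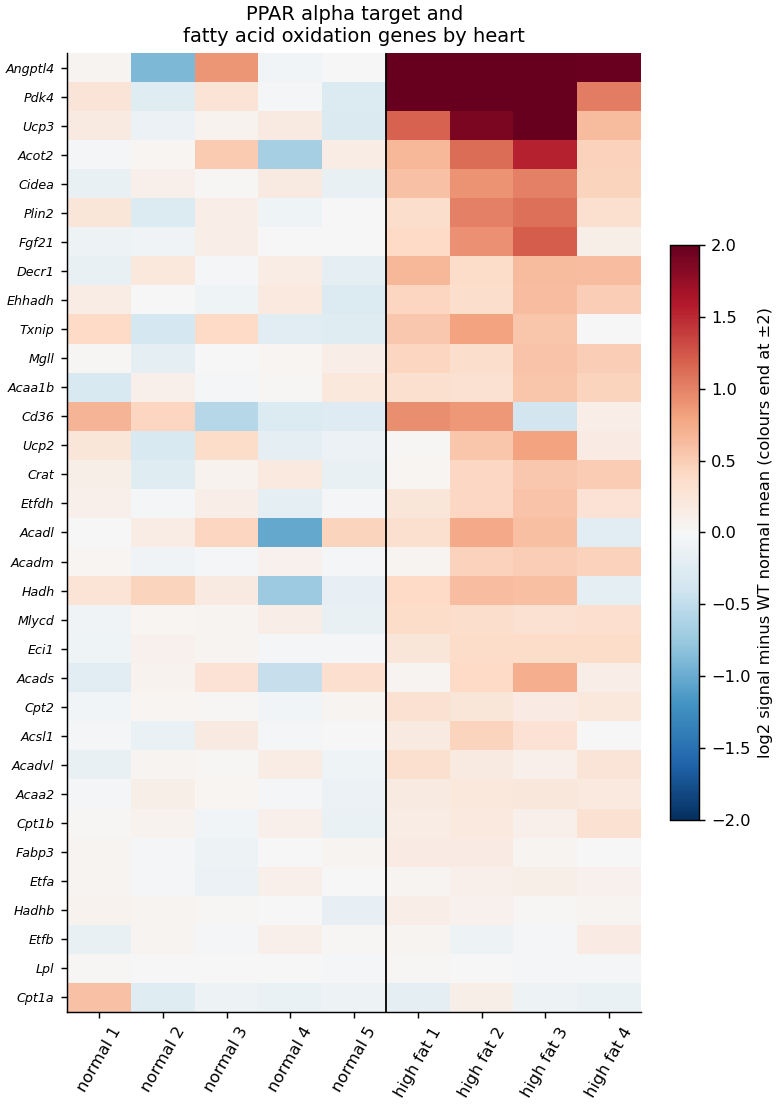
Log2 signal of PPAR alpha target and fatty acid oxidation genes in each WT heart, relative to the mean of the 5 normal diet hearts (red above, blue below, colours ending at ±2). The top rows are red in all 4 high fat hearts, with replicate 4 paler for Pdk4, Ucp3 and Acot2, while the lower rows, down to Lpl and Cpt1a, show little difference.

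Fatty acid oxidation genes gave smaller differences on the same side. None of 25 measured members changed at the adjusted threshold, 10 were higher and 0 lower at an unadjusted p under 0.05, and 7 separated the groups with high fat above. Over all genes, 1.99% were higher and 1.11% lower at that p, and 0.834% separated the groups with high fat above. The median was 0.25, and 23 members had a positive sign, beside 7628 of all 14756 genes. This list shares 9 genes with the PPAR alpha targets (37.5% of the targets and 36% of the oxidation genes), so that the lists are not separate evidence. Decr1, the dienoyl-CoA reductase that handles unsaturated fatty acids, read 11.75, 11.46, 11.72 and 11.71 on high fat and 10.94, 11.31, 11.07, 11.24 and 10.89 on normal diet (0.57 ± 0.12; limma, adjusted p = 0.147). Eci1, an isomerase of the same branch, read 13.23 to 13.37 on high fat and 12.91 to 13.09 on normal diet (0.34 ± 0.08; limma, adjusted p = 0.329).

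The other oxidation genes that are not on the target list and reached an unadjusted p under 0.05 were Etfdh, which passes electrons from the dehydrogenases to the respiratory chain (0.38 ± 0.15), and Cpt2, the carnitine palmitoyltransferase of the inner membrane (0.23 ± 0.07). Carnitine acetyltransferase, Crat, stood at 0.38 ± 0.20. Peroxisomal genes had 3 of 21 members higher at an unadjusted p (1.99% over all genes), none changed, and a median of 0.06. These were Pex11a, a factor of peroxisome division (0.48 ± 0.23, with 0.59 ± 0.16 and 0.68 ± 0.13 for its other probes), the isomerase Ech1 (0.28 ± 0.09) and the import factor Pex19 (0.21 ± 0.07). The peroxisomal enzymes Ehhadh, Acaa1b and Acot4 stood on other lists and are not in this count. Respiratory chain subunits did not follow: none of 36 reached an unadjusted p under 0.05 and the median was -0.02, and the 23 ATP synthase and citrate cycle genes gave 0 as well with a median of 0.04.

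Genes that store and release triglyceride gave few differences beyond Mgll and Cidea. Of 12 triglyceride synthesis genes none changed and 3 were higher at an unadjusted p (1.99% over all genes): Agpat3, Gpat3, a glycerol phosphate acyltransferase (0.42 ± 0.17), and Agpat2 (0.26 ± 0.11). Dgat2, which adds the last fatty acid, read 13.08 to 13.21 on high fat and 12.86 to 13.26 on normal diet (0.10 ± 0.10). Of 11 triglyceride hydrolysis genes, Mgll was the only one to change or to reach an unadjusted p under 0.05 by the probe that stood for the gene. Pnpla2, the lipase of the first step, showed 0.18 ± 0.15, with 0.355 ± 0.135 for a dimmer probe. Lipe, a further member, showed 0.06 ± 0.22, with 0.337 ± 0.146 for a dimmer probe. Of 10 droplet coat genes, Cidea rose, Plin2 reached an unadjusted p under 0.05, and Plin5, the coat protein of oxidative muscle, showed 0.24 ± 0.18.

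Among 16 genes of fatty acid uptake and lipase control, Angptl4 was the 1 member under an unadjusted p of 0.05, and the median was 0.08. Over all genes, 1.99% were higher and 1.11% lower at that p. Of 13 uncoupling proteins and acyl-CoA thioesterases 4 were higher at an unadjusted p (Ucp3, Acot2, Acot4 and Acot6, the last at 0.32 ± 0.14), and the list's median was 0.01. Acot4, a peroxisomal thioesterase, read 5.48 to 5.65 on high fat and 4.91 to 5.22 on normal diet. It was detected on 4 of 4 and 0 of 5 arrays (0.50 ± 0.12; limma, adjusted p = 0.369). The difference amounts to at least 1.06-fold over the detection floor. The WT high fat arrays alone were enough for Acot4 to meet the filter of 4 arrays, and its normal diet level lay below detection. Its place among the 4 higher members is therefore no independent support. Fatty acid synthesis genes gave 0 higher and 2 lower of 17 at an unadjusted p: Scd2, a stearoyl-CoA desaturase (-0.32 ± 0.12), and Acss2, which makes acetyl-CoA from acetate (-0.20 ± 0.08). None of 14 sterol synthesis genes reached an unadjusted p under 0.05.

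No change was detected in the mRNA of the regulators themselves. None of 16 measured PPAR, RXR and PGC-1 genes reached an unadjusted p under 0.05. Ppara, the receptor gene, read 8.41, 7.59, 7.21 and 7.21 on high fat and 7.31, 8.05, 7.95, 7.16 and 7.89 on normal diet (-0.07 ± 0.30). Ppargc1a, the coactivator PGC-1 alpha, showed 0.26 ± 0.30, with high fat replicate 1 the highest at 11.29.

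**Figure D4:**
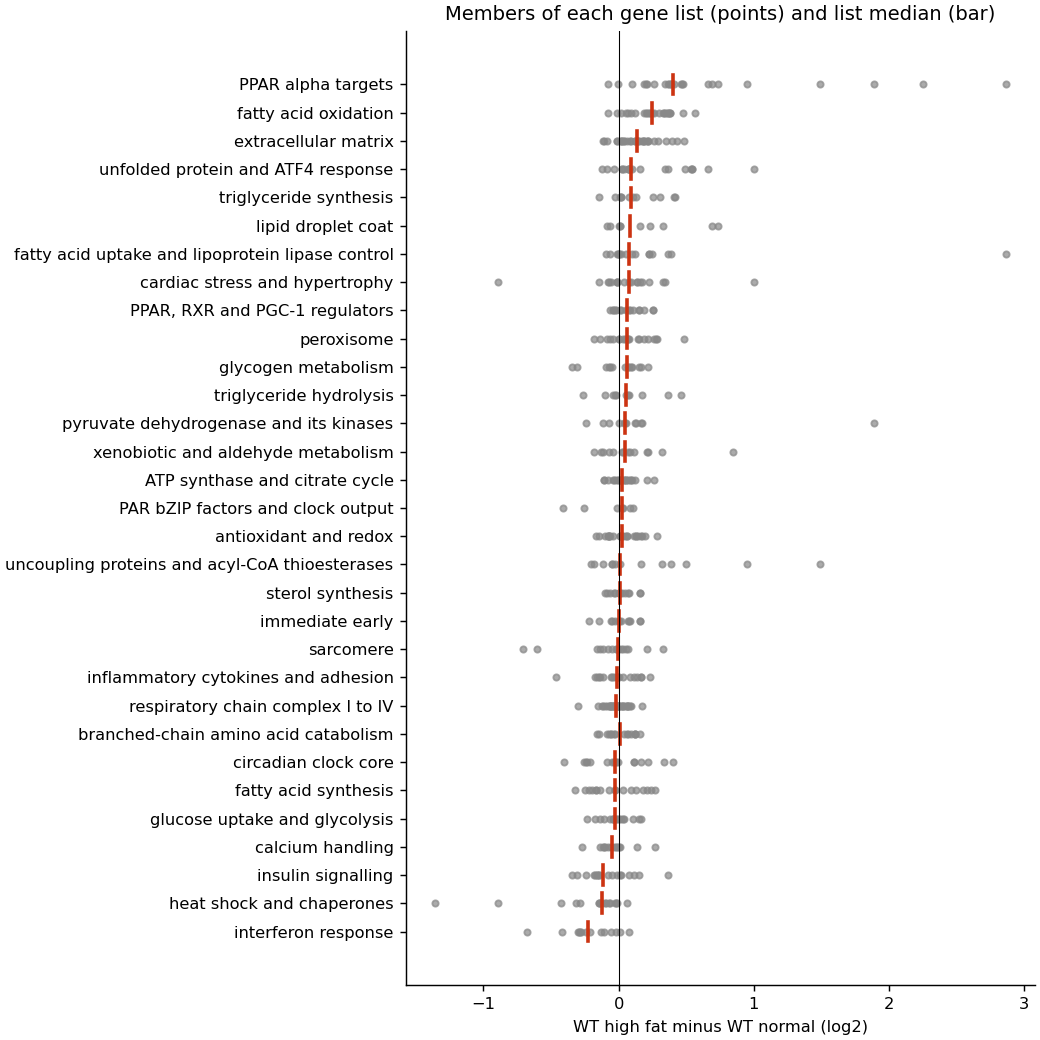
Log2 difference (WT high fat minus WT normal) of every measured member of 31 of the 32 gene lists (points) with the list median (bar), sorted by median. PPAR alpha targets (0.40) and fatty acid oxidation (0.25) have the highest medians and the interferon response (-0.23) the lowest.

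None of the lists described next had a member that passed. Beside their counts, 7628 of all 14756 genes had a positive sign, and 1.99% were higher and 1.11% lower at an unadjusted p under 0.05. Of 20 genes of the unfolded protein and ATF4 response, 6 were higher and 0 lower at an unadjusted p, 17 had a positive sign and the median was 0.09. Asns, asparagine synthetase, showed 0.55 ± 0.15 (limma, adjusted p = 0.601), but its other probe showed -0.02 ± 0.15. Gdf15, a stress cytokine, read 8.75, 7.81, 8.65 and 7.17 on high fat and 7.12, 6.68, 7.23, 6.59 and 7.85 on normal diet, with overlap between the groups (1.0 ± 0.40). The remaining 4 were the folate enzyme Mthfd2 (0.54 ± 0.19), Psat1 of serine synthesis (0.49 ± 0.20), the pseudokinase Trib3 (0.36 ± 0.13) and Fgf21. Fgf21 was not detected on normal diet arrays, which limits its place among the 6. Atf4 itself stood at 0.10 ± 0.12.

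Heat shock and chaperone genes leaned the other way, with 1 of 17 of positive sign, a median of -0.12 and 2 lower at an unadjusted p. Hsph1, a cytosolic chaperone, read 11.77 to 12.12 on high fat and 12.06 to 12.86 on normal diet (-0.42 ± 0.16). Hspa1a (-0.89 ± 0.36) and Hspa1b (-1.36 ± 0.84, with 0.07 ± 0.13 for its other probe), near-identical copies of the inducible HSP70 gene whose probes may share signal, were most variable among the normal diet hearts, Hspa1b ranging from 5.23 to 11.07. Of 14 interferon response genes, 2 had a positive sign, the median was -0.23, and Igtp, an interferon-induced GTPase, was lower at an unadjusted p (-0.68 ± 0.31). Of 32 extracellular matrix genes, 27 had a positive sign, 2 were higher at an unadjusted p, none changed, and the median was 0.14, with Lum, the proteoglycan lumican, at 0.35 ± 0.16.

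Insulin signalling (18 genes) had 1 member higher and 1 lower at an unadjusted p, Trib3 and Pik3r1, the regulatory subunit of PI3 kinase (-0.24 ± 0.11). Ppp1r3c, which targets a phosphatase to glycogen, read 13.89, 13.61, 13.72 and 13.94 on high fat and 14.16, 14.11, 14.0, 14.19 and 14.21 on normal diet, without overlap (-0.34 ± 0.09; limma, adjusted p = 0.566). It was the 1 glycogen gene of 14 under an unadjusted p of 0.05. The cardiac stress list had 1 of 21 higher at an unadjusted p (Gdf15), and sarcomere (18), calcium handling (14), inflammatory (19), antioxidant (25) and branched-chain amino acid catabolism genes (17) had 0. At this time of day the core clock list had 1 of 17 higher at an unadjusted p, Npas2 (0.33 ± 0.15, detected on 1 of 4 and 0 of 5 arrays). Npas2 lay mostly below detection, so that this count rests on signals near background. Arntl (0.22 ± 0.17), Per2 (-0.25 ± 0.19) and Nr1d1 (0.12 ± 0.14) did not pass, and Dbp, a clock output factor, was lower at an unadjusted p (-0.41 ± 0.16).

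Markers of other cells were read alongside. Of 11 adipocyte markers 6 were detected, none changed, and their median was 0.39; Lep, Retn, Plin1, Adrb3 and Nnat were not detected on enough arrays to be tested. Their summed linear level was 1026 to 1493 in normal diet and 1293 to 2465 in high fat hearts, and Adipoq read 6.77, 7.93, 6.78 and 7.67 on high fat and 6.34, 7.18, 6.95, 7.41 and 6.34 on normal diet (0.44 ± 0.51). Among the high fat hearts Adipoq was highest in replicates 2 and 4 and Cidea, also a brown fat gene, in replicates 3 and 2. Among the normal diet hearts both were highest in replicate 4, followed by 2 and 3. Of the brown adipocyte markers Ucp1 and Elovl3 were not detected on enough arrays to be tested. The part of fat tissue in the Cidea, Mgll and Plin2 differences was not tested.

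Atrial markers varied widely within both groups. The summed level was 4839 to 52505 on normal diet and 2380 to 48244 on high fat, and Myl7, the atrial light chain, read 5.21 to 11.59 on high fat and 5.76 to 11.79 on normal diet. High fat replicates 2 and 3 and normal replicates 2, 3 and 4 were the highest for Myl7 and Myl4. High fat replicates 2 and 3 also held the highest signals for Angptl4, Ucp3, Acot2, Plin2, Cidea and Fgf21. In normal replicates 2, 3 and 4, with high Myl7, Cidea read 9.65, 9.58 and 9.73, against 9.40 and 9.40 in replicates 1 and 5. Fbp2 likewise read 10.86, 10.96 and 10.86 there, against 10.25 and 10.18. Plin2 read 8.75, 9.15 and 8.93 there, against 9.27 and 9.01. Angptl4 read 6.91, 8.69 and 7.75 there, against 7.86 and 7.81. For Acot2 the values were 6.91, 7.39 and 6.21, against 6.84 and 7.01. For Ucp3 they were 5.30, 5.47 and 5.58, against 5.58 and 5.11. Fgf21, not detected on normal diet arrays, read 4.75, 4.95 and 4.83, against 4.71 and 4.83. On high fat, Fbp2 was highest in replicate 4 (12.09), where Myl7 was lowest (5.21). The part of atrial tissue in these differences was not tested. Neutrophil and mast cell markers summed to 185 to 2950 on normal diet and 210 to 439 on high fat, the highest value coming from normal replicate 5, where S100a8 read 10.62. Endothelial markers had 1 of 12 at an unadjusted p under 0.05 (3.1% over all genes), the tight junction gene Cldn5 (0.53 ± 0.19). Lymphocyte, smooth muscle, epicardial, nerve, skeletal muscle, macrophage and erythroid lists had none, and the fibroblast list had 1 of 9 (Lum).

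The same diet contrast in CCM hearts rests on separate animals and allowed a test of whether the response differed between genotypes. By limma 0 of 14756 genes passed for that difference after adjustment, and 400 (2.71%) had an unadjusted p under 0.05; every alternative fitted to both genotypes also gave 0 after adjustment. No WT rise was thus shown to differ between the genotypes. In CCM hearts 4 genes were called for diet, Fgf21, Aqp8 and Gcat among them, and 1 of the 4 was called in both genotypes. Pdk4 showed 1.89 ± 0.29 in WT and 0.93 ± 0.28 in CCM hearts (unadjusted p of the difference 0.0296) and Ucp3 1.49 ± 0.28 and 0.57 ± 0.27 (0.0300), the latter gene detected on 1 of 5 CCM normal diet arrays. 2210409D07Rik was detected on 0 of 10 CCM arrays, so that its diet difference there was not measured.

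Cidea (0.74 ± 0.13 in WT and 0.67 ± 0.12 in CCM), Fbp2 (1.19 ± 0.18 and 0.90 ± 0.17) and Tnnt1 (-0.65 ± 0.12 and -0.59 ± 0.11) were close in size in both genotypes. Mgll showed 0.46 ± 0.08 in WT and 0.26 ± 0.08 in CCM hearts. Over the 24 PPAR alpha targets the median was 0.40 in WT and 0.33 in CCM hearts, 22 were positive in CCM hearts, and 5 had an unadjusted p under 0.05 for the difference, Acaa1b, Pdk4 and Ucp3 among them. For the 25 oxidation genes the medians were 0.25 and 0.17, with 0 members under that p. Over all genes the medians were 0.01 in WT and -0.01 in CCM hearts, 7137 of 14756 were positive in CCM hearts, and 2.71% had such a p for the difference.

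**Figure D5:**
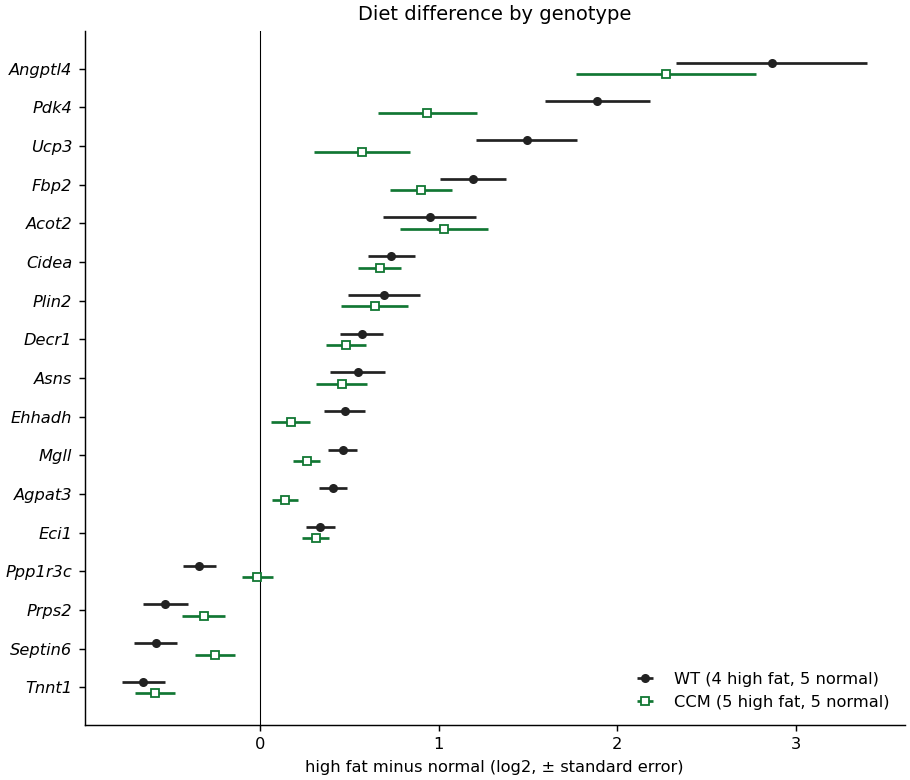
Log2 diet difference (high fat minus normal, ± standard error) of 17 genes in WT hearts (filled circles) and CCM hearts (open squares). The bars of Cidea, Plin2, Decr1 and Tnnt1 overlap, among others. Those of Pdk4, Ucp3, Mgll, Agpat3, Ehhadh, Septin6 and Ppp1r3c do not, and no difference between the genotypes passed after adjustment.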

How the data were processed

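Total RNA of 19 mouse hearts was measured on Illumina bead arrays, 1 array per animal. Per the file headers, the deposited values are average bead intensities, linear and not normalized between arrays, each with a detection p-value. Per the submitters' processing notes BeadStudio 3 was used, with no background setting stated. A deposited table of intensities normalized by the authors, with no method stated, served as an alternative. From the first table, limma 3.58.1 in R 4.3.3 gave background-corrected, quantile-normalized log2 values from these deposited signals (neqc, offset 16), so that differences of dim genes are understated. Detection at p under 0.05 on 4 or more of the 19 arrays kept 19840 of 46643 probes, and the probe with the highest mean over all arrays stood for its gene, which left 14756 genes. Probe names were updated by transcript accession (26165 probes), symbol (4639) or older symbol (3898) through RefSeq's GRCm38.p6 tables, 11936 kept the file's name, and 5 remained unnamed.

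Groups came from the labels. With lmFit and eBayes all 19 arrays were fitted by group means, leaving 15 residual degrees of freedom. Two-sided p-values were adjusted over all genes by Benjamini-Hochberg, and the steps were tested on simulated data. Errors of differences are standard errors, and precision is limited by the number of arrays. The genes chosen for naming were those called, the genes of smallest p in each direction, up to 3 members per list, and the extremes of lists. Genes of smallest p for the genotype difference were chosen as well. Not all of these are described, and those chosen for the genotype difference are left out. 2210409D07Rik, Vwa8, Lgals4, the listed PPAR alpha and oxidation genes beyond these, and most regulator, clock and marker genes were named after their values were seen. Members, lists and rules were chosen with earlier results of these data known. The alternatives tried changed the background correction, offset, normalization, detection filter, probe per gene, variance model, array weights, arrays in the fit and a block on animal number. Some genes, 1 of the 6 that rose among them, are not reported here, although they stay in all counts and medians.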

Additional observations from a re-analysis of the deposited data

Results flagged for a closer look

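A set of 99 genes, not all of them described in the text, was checked for 1 heart standing apart from the others of its group. This was so in 9 of 198 gene and group pairs. Chance alone sets apart about 1 in 20 such groups. In the high fat group, Decr1 was low in replicate 2 (11.46, the others from 11.71 to 11.75), and Eci1 was low in replicate 1 (13.23, the others at 13.37). Acadm was also low in high fat replicate 1 (13.83, the others from 14.23 to 14.26), as was Col1a1 (7.11, the others from 7.92 to 8.05). Pik3r1 was high in high fat replicate 2 (11.83, the others from 11.67 to 11.69). In the normal diet group, replicate 1 was low for Trib3 (7.02, the others from 7.55 to 7.71) and high for Cpt1a (6.46, the others from 5.63 to 5.78). Replicate 4 of the normal diet was low for Clock (6.16, the others from 7.80 to 8.40) and for Cldn5 (10.27, the others from 10.72 to 10.83). The Clock value comes from 1 of the gene's probes, and the brighter one showed a diet difference of 0.13 ± 0.09.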

How the results depend on the processing

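The count of 6 genes that rose became 11 without background correction, 11 with an offset of 50 and 11 with the authors' normalized values, each with 9 higher and 2 lower (Tnnt1 and Septin6), and every one kept all 6. It was 10 with a trended, robust variance model, 10 with animal number (under or over 20) as a block, and 19 with array weights, each with 1 lower gene. A constant shift per array gave 6, with Angptl4 and Ucp3 in place of Cidea and Mgll. It was 3 where detection on at least 9 arrays was asked, which removed 2210409D07Rik from testing. With the WT arrays alone it was 1 with either normalization (Pdk4 at adjusted p = 0.0532 and 0.053), and it was 0 in fits of only the animals numbered under 20 and 0 in fits of only those over 20, with fewer samples in each fit and, by limma, 496 and 899 genes at an unadjusted p under 0.05. In both of these parts Pdk4 (2.14 and 1.63) and Fbp2 (1.11 and 1.30) were higher on high fat. Without single animals it was 2 to 7, and it was 2 without high fat replicate 1, 2 or 3 or normal replicate 5, and 3 without normal replicate 1. 2210409D07Rik passed whichever single animal was left out (limma, adjusted p up to 0.00381). It met the detection filter through the high fat group, so that this is no independent support for its rise. It was detected on 0 of the 10 CCM arrays that share the estimate of the spread. With the WT arrays alone it did not pass (limma, adjusted p = 0.0556). Beyond the fits with fewer samples or a removed probe, the cause of these changes was not tested. No called difference reversed its direction under any alternative run. The count of 0 for the genotype difference held in every alternative fitted to both genotypes. No paired analysis was possible because the animals of the 2 diets are different mice with unique numbers, and replicate numbers were given in order of listing and pair nothing. Dim genes such as 2210409D07Rik, Ucp3, Acot4 and Fgf21 are limited by their closeness to background.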

Other observations

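Genes of glycerol handling and membrane lipids were also among the smaller p-values, and none passed. Aqp7, a channel that carries glycerol across the cell membrane, read 8.13, 8.39, 8.35 and 8.12 in the high fat hearts and 7.34, 7.65, 8.12, 7.66 and 7.54 in the normal diet hearts of WT mice (0.59 ± 0.14; limma, adjusted p = 0.329), and its 2 other probes showed 0.55 and 0.53. Normal replicate 3 came up to the lowest high fat hearts. Gk, the kinase that traps glycerol as glycerol phosphate, read 9.65 to 9.95 on high fat and 9.24 to 9.61 on normal diet (0.37 ± 0.11; adjusted p = 0.844). In CCM hearts Aqp7 showed 0.46 ± 0.13 and Gk 0.44 ± 0.10. Lpcat3, an acyltransferase that places unsaturated fatty acids in phospholipids, showed 0.47 ± 0.11 (limma, adjusted p = 0.291), without overlap between the diets.

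Lgals4, a galectin, read 10.46, 10.27, 10.65 and 10.79 on high fat and 9.14, 9.56, 9.68, 10.30 and 9.15 on normal diet. Normal replicate 4 lay inside the high fat range, and the difference was 0.98 ± 0.20 (limma, adjusted p = 0.124), becoming a call with the block on animal numbers. Ubxn10, a UBX domain protein, read 6.86, 6.03, 6.05 and 6.82 on high fat and 5.15, 5.64, 5.80, 5.54 and 5.0 on normal diet (1.01 ± 0.25; limma, adjusted p = 0.369), and showed 0.0 ± 0.24 in CCM hearts. The mitochondrial glutamate carrier Slc25a22 (0.68 ± 0.17) and the inositol monophosphatase Impa2 (0.64 ± 0.15) separated the diets without overlap and became calls with array weights. Ephx2, the soluble epoxide hydrolase, was the 1 of 14 xenobiotic and aldehyde genes under an unadjusted p of 0.05 (0.32 ± 0.10). Adipoq showed 0.44 ± 0.51 in WT and -1.18 ± 0.48 in CCM hearts, and Cfd, the adipocyte factor adipsin, 0.68 ± 0.54 and -1.10 ± 0.51; neither genotype difference passed after adjustment.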
